A study of Mus musculus with 8 samples.

Results

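The cadherins and protocadherins described here are the mouse genes whose symbol begins with Cdh and a digit or with Pcdh, apart from Cdh4 and Cdh5, as found by matching the RefSeq accession of each array probe to its gene symbol. By this rule 83 probes of 67 genes were members, out of 55681 probes and 20280 named genes on the array. The samples were the arcuate nucleus (Arc), the ventromedial hypothalamus (VMH), the dorsomedial hypothalamus (DMH) and the lateral hypothalamus (LH), each cut by laser microdissection from 2 female C57BL/6 mice (C57BL/6J in the study's methods) aged 3 months, with 2 arrays for each nucleus. RNA from the captured tissue was amplified and hybridised to a one-colour Agilent mouse array, 1 sample per array and 8 arrays in all. The labels name no transgene, deletion or treatment, and a sample was a piece of tissue holding every cell type of its nucleus, so fewer cells of a type and less RNA per cell cannot be told apart. The labels do not say which of the 2 mice gave which sample, so that p-values measure the spread between the 2 samples of a nucleus.

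Cadherins are calcium-dependent adhesion molecules of the cell surface. The classical cadherins bind mostly to the same or a closely related cadherin on the neighbouring cell and hold the actin skeleton through catenins. Type I members, such as N-cadherin (Cdh2), are broadly expressed in neural tissue, whereas type II members mark particular nuclei, layers and fibre tracts of the brain. Protocadherins lack the catenin-binding tail. The non-clustered delta protocadherins act in cell sorting, axon growth and synapse formation, and the clustered protocadherins, encoded by 3 gene clusters called alpha, beta and gamma, are chosen in different combinations by single neurons and give them a surface identity.

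Signals are given below as processed red-channel intensities after each array was divided by its own 75th percentile, and they are compared between nuclei within a probe only, since 2 probes can hybridise with unequal strength. Each difference between nuclei is on the log2 scale, with its standard error and the Benjamini-Hochberg adjusted p of limma over all 28896 probes tested, which were those that the scanner called well above background in both samples of 1 or more nuclei. Of the members, 65 probes of 52 genes were tested, which is 78.3% of the member probes against 51.9% of all probes, and 44 of the 65 were well above background on all 8 arrays. For the remaining 21 tested probes, the level in at least 1 sample was not well above background.

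The labels of the nuclei were checked with marker genes. Agrp, Npy, Pomc and Kiss1 marked the Arc, with a summed signal of 131147 and 143903 there and 2697 to 5318 on the other 6 arrays, and Nr5a1 and Fezf1 marked the VMH, at 17676 and 19750 against 355 to 775 elsewhere. Prdm13 and Npvf summed to 5604 and 6453 in DMH and to 57 to 547 on the other arrays. The LH markers Hcrt, Pmch and Pvalb were highest in LH (130076 and 141696), and they also reached 63362 and 72642 in DMH. The 2 LH arrays were less alike (Pearson r = 0.938 over log2 signals of all tested probes) than those of the other nuclei (0.971 to 0.981), and the second LH array was closer to the second DMH array (0.954) than to the first LH array.

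Markers of other cell types differed among the nuclei as well. Oligodendrocyte genes summed to 131205 and 144258 in LH and to 20440 to 52385 on the other arrays, with 14 of 17 probes past the F-test. Ependymal and tanycyte genes summed to 12813 and 12814 in Arc and to 4356 to 5453 elsewhere, with 7 of 9 probes past the F-test, while Foxj1 and Tmem212, which mark ciliated ependymal cells, were not well above background in any of the 8 samples. Astrocyte genes summed to 75397 and 86140 in Arc and to 152412 and 163251 in LH, with VMH and DMH between them. Of the other lists, 6 of 14 neuronal, 1 of 6 oligodendrocyte precursor and 1 of 9 endothelial probes passed, and so did 1 of 2 anterior pituitary probes, that of Pomc, which Arc neurons also express. Limma called 0 of 13 microglial and 0 of 7 mural and leptomeningeal probes, with 4 and 3 at an unadjusted p below 0.05. Some of these lists were highest or lowest in the same nuclei as some of the members below, and their part in those results was not tested.

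Sequences upstream of 5 genes are shown as examples of the main patterns, namely Pcdh18, Pcdh8 and Cdh20, which were lowest in Arc, Pcdh7, which was highest in Arc, and Cdh8, which was lowest in VMH. Each is the 250 bases before the gene's annotated start in RefSeq, build GRCm38.p6, written 5′ to 3′ on the gene's strand. Capitals mark 3 short motifs, which are the CCAAT box, the TATA box with the letters TATAAA, and the box of G and C with the letters GGGCGG, each searched on both strands and so shown as its reverse complement where it lies on the other strand, and in Cdh20 the 2 CCAAT boxes of the 2 strands overlap.
Pcdh18 (chr3:49757317-49757566, minus strand): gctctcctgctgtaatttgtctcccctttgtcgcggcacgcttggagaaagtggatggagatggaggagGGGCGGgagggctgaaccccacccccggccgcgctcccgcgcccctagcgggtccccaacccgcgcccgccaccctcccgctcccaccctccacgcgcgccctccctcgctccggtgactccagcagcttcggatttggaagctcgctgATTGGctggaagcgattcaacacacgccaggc
Pcdh8 (chr14:79771313-79771562, minus strand): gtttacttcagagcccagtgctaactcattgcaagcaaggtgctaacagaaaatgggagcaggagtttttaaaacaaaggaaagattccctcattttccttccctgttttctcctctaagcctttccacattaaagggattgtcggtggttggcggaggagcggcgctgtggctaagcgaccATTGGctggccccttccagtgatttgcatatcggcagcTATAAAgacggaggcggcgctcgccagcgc
Cdh20 (chr1:104768270-104768519, plus strand): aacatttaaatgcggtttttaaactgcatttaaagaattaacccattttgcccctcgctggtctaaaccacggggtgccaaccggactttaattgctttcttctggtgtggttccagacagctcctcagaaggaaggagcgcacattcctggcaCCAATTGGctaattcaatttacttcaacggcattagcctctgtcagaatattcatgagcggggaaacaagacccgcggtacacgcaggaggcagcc
Pcdh7 (chr5:57717831-57718080, plus strand): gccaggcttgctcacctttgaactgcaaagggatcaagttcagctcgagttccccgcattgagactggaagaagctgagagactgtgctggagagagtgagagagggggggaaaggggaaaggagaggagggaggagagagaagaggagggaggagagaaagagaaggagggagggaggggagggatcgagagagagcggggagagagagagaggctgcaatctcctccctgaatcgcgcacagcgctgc
Cdh8 (chr8:99416472-99416721, minus strand): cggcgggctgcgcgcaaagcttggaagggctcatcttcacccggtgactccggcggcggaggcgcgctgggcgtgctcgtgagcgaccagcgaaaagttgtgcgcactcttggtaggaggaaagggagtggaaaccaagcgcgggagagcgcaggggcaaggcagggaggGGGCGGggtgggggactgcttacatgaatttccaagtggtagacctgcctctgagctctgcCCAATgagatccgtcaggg
The Pcdh18 and Cdh8 sequences were rich in G and C, at 68.0% and 64.4%, and held 23 and 20 CpG pairs, where the median over all 32851 promoter windows of the reference was 52.4% and 6 pairs. Cdh20 had 47.6% and Pcdh8 51.2%, with 10 and 11 pairs, and Pcdh7 had 58.4% with 7. A CCAAT box was present in 4 of the 5 sequences and in 33.8% of all windows, a GC box in 2 of 5 against 32.7%, and a TATA box in that of Pcdh8 against 12.4% of all windows. The homeodomain core TAATTA was in none of the 5 and in 4.84% of all windows. These letters are a description of the windows, and no site was measured. Of the 67 member genes 22 had a window in the reference. Cdh7 and Pcdh15, which were also called and lowest in Arc, had 3 and 1 windows there and are not shown. The motif shares above therefore describe the 5 shown sequences alone.

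The comparison of all 4 nuclei asked which members differed among them at all. The F-test called 10 of the 65 member probes, belonging to 8 genes, at an adjusted p of 0.05, which is 15.4% where 8.34% of all tested probes were called. The called genes were the delta-2 protocadherins Pcdh18 and Pcdh8, the type II cadherins Cdh7, Cdh8 and Cdh20, the membrane-anchored cadherin Cdh13, the delta-1 protocadherin Pcdh7 and the long protocadherin Pcdh15. All 10 probes lay outside the protocadherin clusters, where 10 of 36 tested probes (27.8%) were called, and among the 29 clustered probes limma called 0, with 2 at an unadjusted p below 0.05, although 1 or 2 clustered probes passed under 4 of the alternatives. The count rested on single arrays in every nucleus but LH. It was 1 without either Arc array, which left a probe of Cdh8, 2 and 3 without the first and the second VMH array, 4 and 5 without the first and the second DMH array, and 13 and 14 without the first and the second LH array, when 3.02% and 3.11%, 3.59% and 3.97%, 4.98% and 5.24%, and 11.7% and 13.1% of all probes were called. Without limma's sharing of variance between probes no member passed, when 1.82% of all probes did, and 19 members (29.2%) had an unadjusted p below 0.05, as did 21.8% of all probes. Of the 17 or 18 alternatives run on each of the 10 probes, the F-test call was lost under 4 and 9 for the Cdh8 probes, 5 each for Pcdh18, Cdh7 and Cdh13, 6 for Cdh20, 7 and 9 for the Pcdh7 probes, 9 for Pcdh15 and 10 for Pcdh8.

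**Figure D1:**
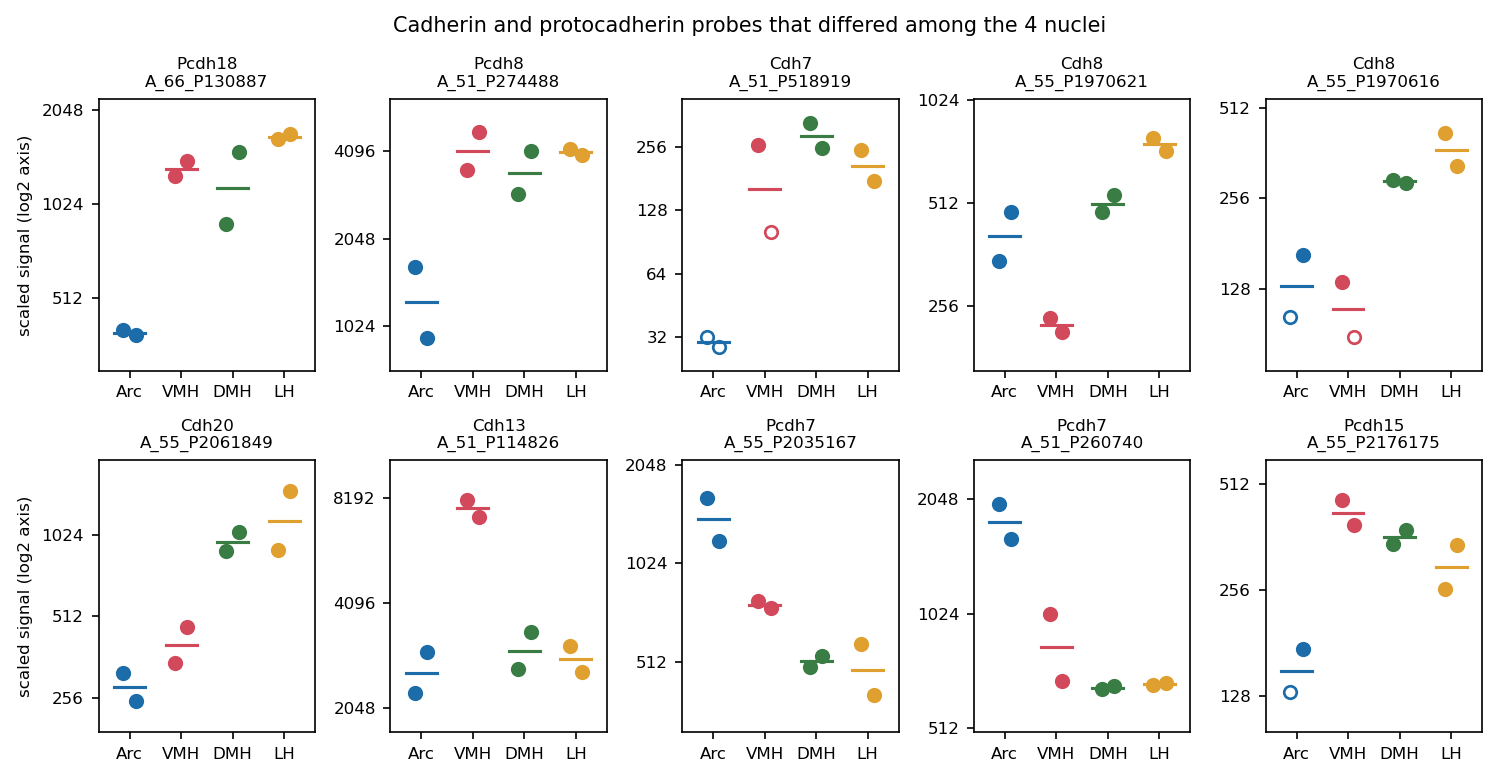
Scaled signal on a log2 axis of the 10 member probes past the F-test, 1 panel per probe, with 1 point per array, a bar at the geometric mean of the 2 arrays of a nucleus, and open points where the probe was not well above background. The Arc points lie below all others for Pcdh18, Pcdh8, Cdh7, Cdh20 and Pcdh15 and above all others for both Pcdh7 probes, and the VMH points lie above all others for Cdh13.

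The delta-2 protocadherins are cell adhesion molecules whose tails can recruit actin regulators of the WAVE complex. Pcdh18, which also binds the adaptor protein Dab1, had signals of 404 and 387 in Arc, 1259.8 and 1399.8 in VMH, 882 and 1501 in DMH and 1651 and 1709.8 in LH. Both Arc samples lay below all other samples, with no overlap. The signal was higher in LH than in Arc by 2.09 ± 0.28 (SE) on the log2 scale, a ratio of 4.25, with an adjusted p of 0.00626, and higher in VMH than in Arc by 1.75 ± 0.28 (adjusted p = 0.0149). DMH was higher than Arc by 1.54 ± 0.28 (adjusted p = 0.0574), which missed the threshold, and its 2 samples differed more than those of the other nuclei.

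Pcdh8, also called arcadlin, is induced by neuronal activity and takes part in the internalisation of N-cadherin at synapses. Its signals were 1640.3 and 933 in Arc, 3539 and 4769.5 in VMH, 2914 and 4102 in DMH and 4164 and 3983 in LH. The Arc samples were again the lowest and did not overlap with the others, and they differed from each other by the largest ratio of the 4 nuclei. VMH was higher than Arc by 1.73 ± 0.33 (SE) on the log2 scale, a ratio of 3.32, with an adjusted p of 0.03. LH was higher than Arc by 1.72 ± 0.33 (adjusted p = 0.0234), while DMH over Arc at 1.48 ± 0.33 (adjusted p = 0.112) missed the threshold. Its F-test call was lost under 10 of the 18 alternatives run, among them the replicate number as a block (adjusted p of 0.0711), quantile normalization (0.053), no filter on dim probes (0.0755) and leaving out any 1 of the Arc, VMH or DMH arrays.

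Pcdh10 guides axons and limits the number of excitatory synapses. It did not pass the F-test (adjusted p of 0.0834 and 0.0864 for its 2 probes), although both probes were lower in Arc than in LH. The first probe passed with normexp background correction (adjusted p of 0.0292), and the second with only probes well above background on all 8 arrays (0.0413) and without the first or the second DMH array (0.0484 and 0.0384). One probe had signals of 5274 and 6059 in Arc, 7919 and 9241 in VMH, 9238 and 9371 in DMH and 10530.2 and 11349.6 in LH, and LH was higher than Arc by 0.95 ± 0.20 (adjusted p = 0.0301). The other probe had signals of 332 and 318 in Arc, 533 and 495 in VMH, 337 and 633 in DMH and 855 and 994 in LH, with LH higher than Arc by 1.51 ± 0.31 (adjusted p = 0.0287). On both probes the 2 LH samples were above all others and the 2 Arc samples below all others.

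Pcdh19, which is X-linked and combines with N-cadherin, gave 977 and 1012 in Arc, 1543 and 1423 in VMH, 821 and 953 in DMH and 919 and 1046 in LH. Its VMH samples were above all others, but no contrast passed the threshold, the largest being VMH over DMH at 0.74 ± 0.20 (adjusted p = 0.154). Pcdh17, found at synapses of the basal ganglia circuits, gave 2922 and 3570.3 in Arc, 4337 and 4209 in VMH, 4251 and 3251 in DMH and 4890.5 and 4193 in LH and did not pass (F-test adjusted p of 0.454). Over the 6 delta-2 probes, the median difference of Arc minus LH was -1.23, beside 0.05 over all tested probes, and 4 of the 6 were called as lower in Arc than in LH where 6.02% of all probes were.

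The delta-1 protocadherins carry a binding motif for protein phosphatase 1 in their tail. Of the genes past the F-test, Pcdh7 was the one highest in Arc. Its first probe had signals of 1622 and 1197 in Arc, 786 and 749 in VMH, 497 and 534 in DMH and 580.1 and 407 in LH, and its second probe had signals of 1988 and 1605 in Arc, 1023 and 683 in VMH, 649 and 660.4 in DMH and 665 and 674 in LH. On both probes the Arc samples were above all 6 other samples, VMH lay next, and DMH and LH were near each other. Arc was higher than LH by 1.52 ± 0.26 (SE) on the log2 scale, a ratio of 2.87, with an adjusted p of 0.0153 on the first probe, and by 1.42 ± 0.25 (adjusted p = 0.0183) on the second. Against DMH the differences of 1.44 ± 0.26 (adjusted p = 0.0569) and 1.45 ± 0.25 (adjusted p = 0.0524) missed the threshold. The F-test call was lost under 9 of the 18 alternatives on the first probe and 7 of 18 on the second, on both of them with no scaling, with no filter on dim probes and without any 1 of the Arc or DMH arrays.

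The other Pcdh7 probe did not pass the F-test (adjusted p of 0.0948). Its signals were 788 and 934 in Arc, 601 and 468 in VMH, 359 and 326 in DMH and 770 and 486 in LH. Arc was again the highest and DMH the lowest, but the first LH sample came close to the Arc samples, and Arc differed from LH by 0.49 ± 0.28 (adjusted p = 0.314). This probe and the first were assigned to the same RefSeq transcript.

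Pcdh9 and Pcdh1 did not pass the F-test. Pcdh9, an adhesion molecule of cortical and other neurons, had 3 probes, and on the one with the smallest F-test p the signals were 526 and 524 in Arc, 485 and 409 in VMH, 431 and 511 in DMH and 700.5 and 918 in LH. The difference of LH from VMH was 0.85 ± 0.23 (adjusted p = 0.0871) on this one. LH was the highest nucleus on all 3 probes, but 1 of them entered the fit through LH alone, so its order is not read as a result. Pcdh1, which is also expressed in airway epithelium, gave 489 and 483 in Arc, 423 and 512 in VMH, 296 and 416 in DMH and 484 and 315 in LH, where the ranges of Arc, VMH and LH overlapped.

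The type II cadherins mark subsets of neurons in many brain regions. Of their 12 tested probes 4 passed the F-test, and 9 had an unadjusted p below 0.05, where 24.6% of all tested probes had one. Cdh7 had signals of 32 and 28.9 in Arc, 260.2 and 101 in VMH, 331 and 252 in DMH and 245 and 175 in LH. It was not well above background in Arc or in the second VMH sample, and it was measured in all DMH and LH samples. DMH was at least 2.55-fold higher than Arc and LH at least 1.83-fold higher, with each Arc signal raised to the lowest well-measured signal of its array. The fit of the values as measured gave adjusted p of 0.0202 and 0.0125, but with dim signals raised in this way Cdh7 no longer passed the F-test (adjusted p of 0.227). With normexp background correction it passed (0.0306), with a DMH minus Arc difference of 1.18 on the log2 scale. It was the only member called between Arc and DMH, where 1.26% of all probes were called, 0.727% as lower and 0.533% as higher in Arc, and by the same test 13 of the 65 member probes had an unadjusted p below 0.05, as did 10.8% of all probes. The count of members called in this pair fell without any 1 of the Arc or DMH arrays and rose without either LH array. The share of all probes called in those fits is not given, so these changes are not read as results about the members. Under 5 other alternatives 4 or 5 members were called, when 1.24% to 1.68% of all probes were. These were no scaling, quantile normalization, normexp background correction, only probes well above background on all 8 arrays, and dim signals raised. In this pair ependymal and tanycyte genes were called higher in Arc on 4 of 9 probes and astrocyte genes lower on 1 of 15.

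Cdh8, which takes part in sensory circuits, had its lowest mean in VMH on both of its probes, but on 1 of them Arc and VMH overlapped near background. One probe had signals of 346 and 482 in Arc, 235 and 215 in VMH, 480.3 and 540.3 in DMH and 792 and 726 in LH. The 2 VMH samples were below all others and the 2 LH samples above all others, with Arc and DMH between, and LH was higher than VMH by 1.76 ± 0.23 (SE) on the log2 scale, a ratio of 3.38, with an adjusted p of 0.00946. The other probe gave 103 and 165 in Arc, 135 and 88.9 in VMH, 294 and 287 in DMH and 421 and 327 in LH, with Arc and VMH each well above background on 1 array only. Its differences from these nuclei rest in part on signals not well above background. On it LH was higher than VMH by 1.76 ± 0.32 (adjusted p = 0.027) and higher than Arc by 1.51 ± 0.32 (adjusted p = 0.0316), and the Arc and VMH samples overlapped. With the replicate number as a block this probe no longer passed the F-test (adjusted p of 0.0553), and with normexp background correction its LH minus VMH difference was 0.94. The probes were assigned to different RefSeq transcripts of the gene.

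Cdh20 separated the nuclei into 2 pairs. Its signals were 317 and 249 in Arc, 346 and 469 in VMH, 891 and 1045 in DMH and 896 and 1479.6 in LH. Every Arc and VMH sample was below every DMH and LH sample. LH was higher than Arc by 2.04 ± 0.31 (SE) on the log2 scale, a ratio of 4.1, with an adjusted p of 0.0105, and higher than VMH by 1.52 ± 0.31 (adjusted p = 0.0388). With normexp background correction the LH minus Arc difference was 1.44. DMH was higher than Arc by 1.78 ± 0.31 (adjusted p = 0.0524) and than VMH by 1.26 ± 0.31 (adjusted p = 0.123), which missed the threshold. VMH over Arc, at 0.52 ± 0.31 (adjusted p = 0.416), missed it as well.

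Cdh11, a cadherin of mesenchymal cells and of neurons, had 2 probes for the same transcript that did not share an order of the nuclei. One gave 78.6 and 91.7 in Arc, 119 and 85.2 in VMH, 69.4 and 99.6 in DMH and 182 and 188 in LH, where only the LH arrays were well above background and LH was at least 1.64-fold higher than Arc. This probe entered the fit through LH alone, so its call between Arc and LH, which was lost with the replicate number as a block, is not read as a result. The other gave 453 and 482 in Arc, 299 and 234 in VMH, 471 and 402 in DMH and 225 and 347 in LH, with Arc and LH in the opposite order, at 0.74 ± 0.27 (adjusted p = 0.138). Neither passed the F-test.

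Cdh10, Cdh22 and Cdh24 did not pass either. Cdh10 gave 157 and 322 in Arc, 444 and 394 in VMH, 421 and 409 in DMH and 548 and 614 in LH, and its first Arc sample was not well above background. Cdh22, named PB-cadherin for its expression in pituitary and brain, gave 9649 and 10889 in Arc, 19491 and 15848 in VMH, 12399 and 12842 in DMH and 10230.4 and 11718 in LH, with both VMH samples above all others and VMH over Arc at 0.78 ± 0.21 (adjusted p = 0.0854). Cdh24 gave 376 and 344 in Arc, 227 and 165 in VMH, 178 and 212 in DMH and 216 and 299 in LH, with both Arc samples above all others and Arc over VMH at 0.89 ± 0.26 (adjusted p = 0.109). Of the remaining type II members, Cdh6, Cdh9 and Cdh18 had F-test adjusted p between 0.59 and 0.72. Cdh12 was well above background on the first LH array only, and Cdh19, known from the Schwann cell lineage, was not on any array, with signals of 20.3 to 32.6.

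Cdh13 (T-cadherin) is held in the membrane by a lipid anchor, has no cytoplasmic tail and is a receptor for adiponectin. Its signals were 2259 and 2956 in Arc, 8105 and 7252 in VMH, 2645 and 3372 in DMH and 3085 and 2596 in LH. The 2 VMH samples were the highest, and the other 6 samples overlapped with each other. VMH was higher than Arc by 1.57 ± 0.24 (SE) on the log2 scale, a ratio of 2.97, with an adjusted p of 0.0137, higher than LH by 1.44 ± 0.24 (adjusted p = 0.0216) and higher than DMH by 1.36 ± 0.24 (adjusted p = 0.0418). It was the only member called between VMH and DMH, where 2.04% of all probes were called, 1.1% as higher and 0.945% as lower in VMH, and 7 member probes (10.8%) had an unadjusted p below 0.05, as did 12.3% of all probes. Neuronal genes were called lower in VMH than in DMH on 2 of 14 probes and ependymal and tanycyte genes higher on 1 of 9. The call of Cdh13 was lost with no scaling of the arrays, with no filter on dim probes, with the replicate number as a block, without limma's sharing of variance and without any 1 of the Arc, VMH or DMH arrays, while the count for this pair was 2 without either LH array.

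The type I cadherins showed no called difference. N-cadherin (Cdh2), the main classical cadherin of neural tissue, had signals of 6663 and 6806 in Arc, 8949 and 7430.1 in VMH, 7446 and 7652 in DMH and 8605 and 9023 in LH on one probe and 8867 and 8786 in Arc, 12811 and 7581 in VMH, 9432 and 9393 in DMH and 9615 and 10648 in LH on the other. The largest differences between nuclei were 0.39 ± 0.19 (adjusted p = 0.256) and 0.20 ± 0.27 (adjusted p = 0.686), both LH over Arc. Cdh15, known from muscle and cerebellum, ranged from 387 to 615. E-cadherin (Cdh1) and P-cadherin (Cdh3), which are epithelial, were not well above background in any sample, with signals of 18.7 to 29.8. Of the 3 tested type I probes, limma gave 0 with an unadjusted p below 0.05 in the F-test.

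Pcdh15, a long protocadherin of the tip links of hair cells that is also expressed in brain, had 6 probes, assigned to 4 transcripts, of which 3 were tested. The called probe had signals of 131 and 174 in Arc, 461 and 393 in VMH, 347 and 380.4 in DMH and 258 and 345 in LH, with the first Arc array not well above background. Both Arc samples were below all others, and VMH was higher than Arc by 1.49 ± 0.25 (SE) on the log2 scale, a ratio of 2.81, with an adjusted p of 0.0178. DMH and LH over Arc, at 1.26 ± 0.25 (adjusted p = 0.0761) and 0.98 ± 0.25 (adjusted p = 0.0544), missed the threshold. The F-test call was lost under 9 of the 17 alternatives that tested this probe, among them normexp background correction, where the difference was 0.85 (F-test adjusted p of 0.0933), and leaving out any 1 of the Arc, VMH or DMH arrays. The other tested probes gave F-test adjusted p of 0.452 and 0.512, and on both of them the second LH sample was the lowest of the 8, at 75.9 and 172. The remaining 3 probes were not well above background in any of the samples.

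Pcdh20 had signals of 2939 and 1767 in Arc, 2723 and 1736 in VMH, 1189 and 1575 in DMH and 361 and 824 in LH. Both LH samples were below all others, and they differed from each other more than 2-fold. Arc was higher than LH by 2.06 ± 0.46 (SE) on the log2 scale, a ratio of 4.18, with an adjusted p of 0.038, whereas the F-test did not pass (adjusted p of 0.0804). It passed under 5 alternatives, which were no scaling (adjusted p of 0.0345), normexp background correction (0.0445), only probes well above background on all 8 arrays (0.0325), dim signals raised (0.0498) and leaving out the second LH array, where the adjusted p was 0.0236 and the difference 2.66. Without the first LH array the difference was 1.47 and the adjusted p 0.135. With the replicate number as a block Pcdh20 was not called between Arc and LH (adjusted p of 0.056). Pcdh12, known from endothelial cells, ranged from 145 to 293 and did not pass the F-test.

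**Figure D2:**
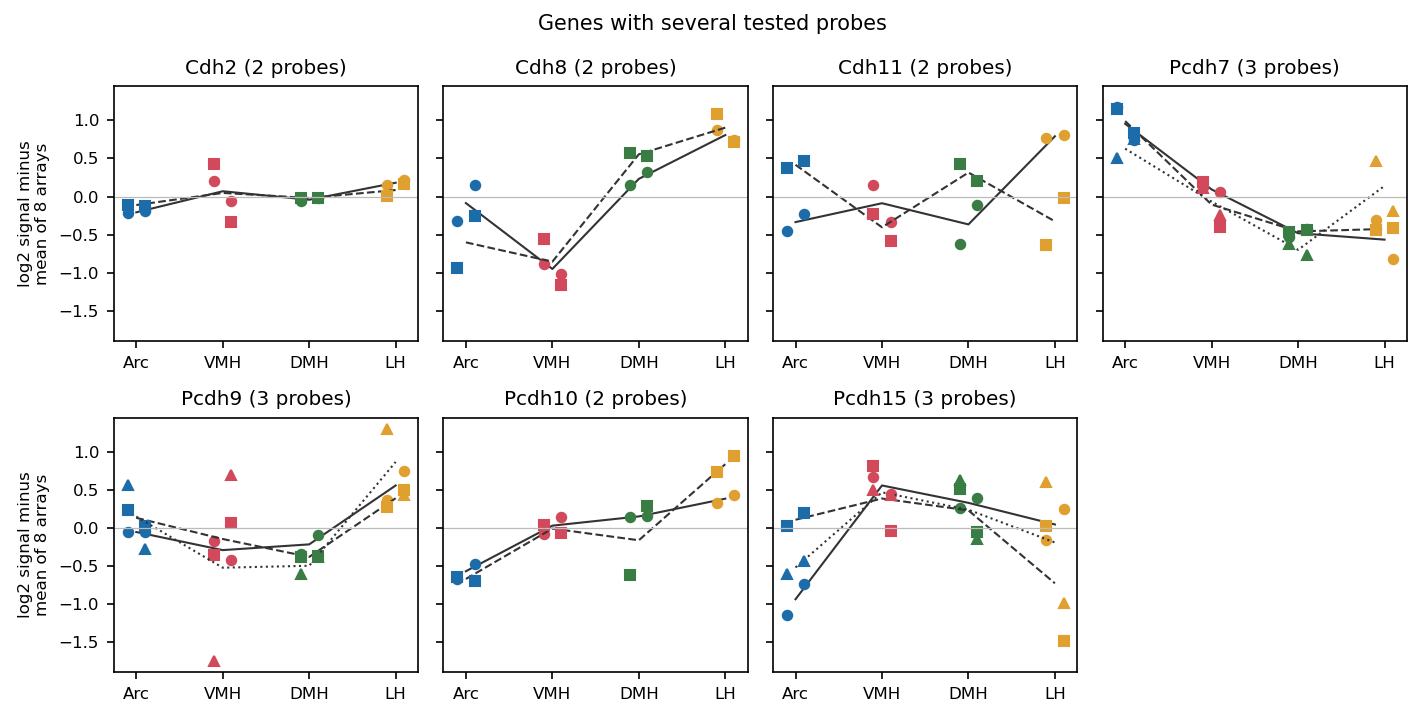
The 7 genes outside the protocadherin clusters with 2 or more tested probes, plotted as log2 signal minus the probe's mean over the 8 arrays, with 1 point per array, a marker shape and line style for each probe, and lines through the mean of each nucleus. Both Cdh8 probes were highest in LH and had their lowest mean in VMH, though the Arc and VMH samples of 1 probe overlapped. Both Pcdh10 probes were lowest in Arc and highest in LH. The lines of different probes cross at the nuclei between, and those of Cdh11 and Pcdh15 cross as well.

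The clustered protocadherins were 38 probes of 35 genes, and 29 probes of 26 genes were tested. All 9 alpha and all 7 gamma probes were tested, whereas 9 of 22 beta probes were not well above background in any sample. The transcripts within the alpha cluster, and those within the gamma cluster, share their last exons, and the beta genes are close copies of each other, so a probe named for 1 gene may take up signal from others. No clustered probe passed the F-test. Under the alternatives Pcdhgc5 passed with only probes well above background on all 8 arrays and with dim signals raised, Pcdha4 and Pcdha12 passed without the first LH array, and Pcdhb4 passed without the second. The median difference between the highest and the lowest nucleus was 0.68 on the log2 scale for the clustered probes and 1.08 for the members outside the clusters, beside 0.65 for all tested probes.

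Single contrasts did reach the threshold for 2 clustered genes. Pcdhgc5, one of the gamma genes of the C type that are expressed more uniformly than the others, had signals of 426 and 417 in Arc, 363 and 573 in VMH, 281 and 381 in DMH and 194 and 161 in LH. Both LH samples were below all others. VMH was higher than LH by 1.37 ± 0.29 (SE) on the log2 scale, a ratio of 2.58, with an adjusted p of 0.0426, and Arc was higher than LH by 1.25 ± 0.29 (adjusted p = 0.0401). The call between VMH and LH was lost with the replicate number as a block (adjusted p of 0.052). Pcdhb15 gave 70.3 and 108 in Arc, 203 and 223 in VMH, 104 and 138 in DMH and 131 and 107 in LH, with neither Arc array well above background, and VMH was at least 1.88-fold higher than Arc. It entered the fit through VMH alone, so its call between Arc and VMH, which was lost with the replicate number as a block, is not read as a result. Its F-test adjusted p was 0.103.

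Among the other beta genes, Pcdhb21 gave 369 and 154 in Arc, 198 and 273 in VMH, 276 and 453 in DMH and 672 and 566 in LH, with both LH samples above all others but with Arc samples that differed more than 2-fold, and LH over VMH was 1.41 ± 0.45 (adjusted p = 0.136). Pcdhb12 gave 23933 and 23492 in Arc, 20723 and 28674 in VMH, 19051 and 25831 in DMH and 13636 and 15445 in LH, and both of its LH samples were below all others, at 0.75 ± 0.25 (adjusted p = 0.153) for VMH over LH. Neither passed. The other tested beta probes had F-test adjusted p from 0.277 to 0.994.

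The 2 LH samples were unlike each other for the alpha genes. On 6 of the 9 alpha probes the second LH sample was the lowest of all 8, as it was on 11 of the 65 tested member probes. Pcdha4, for example, had signals of 332 and 292 in Arc, 187 and 263 in VMH, 252 and 219.9 in DMH and 323 and 86.8 in LH, and Pcdha12 had 349 and 378 in Arc, 285 and 408 in VMH, 334 and 399.9 in DMH and 366 and 125 in LH. DMH exceeded LH on 8 of the 9 alpha probes, with a median difference of 0.61, where it did so on 50.9% of all tested probes, and none was called between these nuclei. A Pcdhac2 probe among the 8 was well above background on both arrays in DMH alone and on neither LH array. Its direction is therefore not read as a result. The excess of DMH over LH rested on the second LH array. Without it DMH exceeded LH on 4 of the 9, with a median of -0.0035, when it did so on 46.7% of all probes. Without the first LH array DMH exceeded LH on 8 of the 9, with a median of 0.946, when it did so on 49.1% of all probes. The gamma probes apart from Pcdhgc5 had F-test adjusted p from 0.377 to 0.99, and Pcdhga9, with 2 probes, had signals of 33438 to 46538 on one and 6927 to 10415 on the other in every sample.

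**Figure D3:**
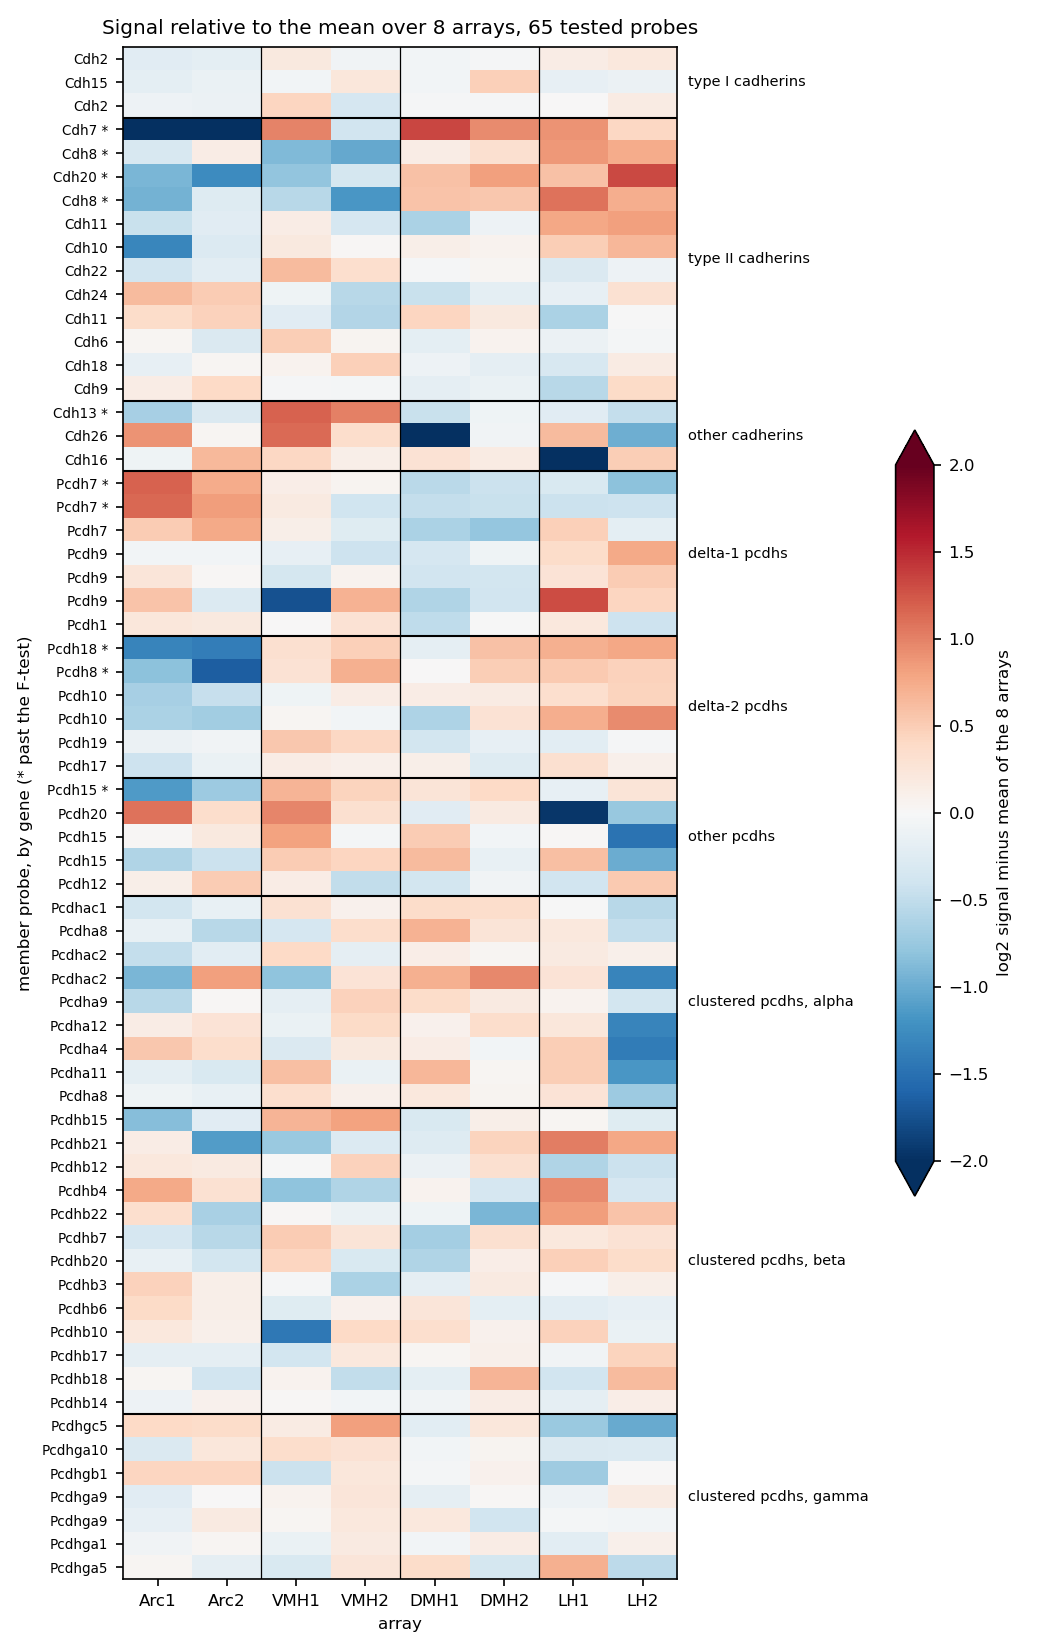
Log2 signal of each of the 65 tested member probes (rows, grouped by class and ordered by F-test p) on each of the 8 arrays (columns), minus the probe's mean over the arrays, with red above and blue below it, a colour range of -2 to 2 and an asterisk on the 10 probes past the F-test. The asterisks lie in the type II, other cadherin, delta and other protocadherin rows, and the alpha rows are mostly blue on the second LH array.

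Over the 6 pairs of nuclei, 19 of the 25 calls of members (76.0%) and 66.7% of the calls of all probes were in pairs with Arc. The 19 include the calls of Cdh11 and Pcdhb15, which are not read as results since each was tested through the higher nucleus alone. They also include those of Cdh7, which was not well above background on either Arc array. Between Arc and LH limma called 12 member probes where 9.34% of all probes were called (18.5% of the members), 8 of them lower in Arc (background 6.02%) and 4 higher in Arc (background 3.33%). The 8 were Pcdh18, Pcdh8, Cdh7, Cdh20, 1 Cdh8 probe, both Pcdh10 probes and the Cdh11 probe that was measured in LH alone, and the 4 were 2 Pcdh7 probes, Pcdh20 and Pcdhgc5. The count of calls in this pair fell without either Arc array, without either DMH array and without the second LH array. The share of all probes called in those fits is not given, so the fall is not read as a result about the members. In this pair the oligodendrocyte genes were called lower in Arc on 14 and higher on 1 of 17 probes. Lower in Arc were also 5 of 15 astrocyte, 3 of 14 neuronal, 3 of 6 oligodendrocyte precursor and 1 of 9 endothelial probes, and the ependymal and tanycyte genes were called higher in Arc on 7 of 9.

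Between Arc and VMH, 6 member probes were called (background 5.92%), all 6 lower in Arc (background 3.52%) and 0 higher (background 2.4%). They were Pcdh18, Pcdh8, Cdh7, Cdh13, 1 Pcdh15 probe and Pcdhb15, which was tested through VMH alone. In this pair Cdh7 was well above background in the first VMH sample alone, so its call here is not read as a result. The count of calls in this pair fell without any 1 of the Arc, VMH or DMH arrays. The share of all probes called in those fits is not given, so the fall is not read as a result about the members. In this pair neuronal genes were called lower in Arc on 4 and higher on 2 of 14 probes, astrocyte genes lower on 2 and higher on 2 of 15, oligodendrocyte genes lower on 2 of 17, and ependymal and tanycyte genes higher on 5 of 9.

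Between VMH and LH, 5 member probes were called (background 5.28%). Higher in VMH were Cdh13 and Pcdhgc5 (background 2.24%), and lower in VMH were Cdh20 and both Cdh8 probes (background 3.04%). The count in this pair fell without any 1 of the Arc, VMH or DMH arrays and rose without either LH array. In those fits the share of all probes called is not given, so these changes are not read as results about the members. Oligodendrocyte genes were called lower in VMH than in LH on 12 of 17 probes, neuronal genes on 2 of 14, oligodendrocyte precursor genes on 1 of 6 and endothelial genes on 1 of 9, and of the 9 ependymal and tanycyte probes 1 was called higher and 1 lower in VMH. Between DMH and LH limma called 0 member probes, where 0.924% of all probes were called, 0.26% as higher and 0.664% as lower in DMH. An unadjusted p below 0.05 was found for 12 members (18.5%) against 15.5% of all probes. The count of calls rose without either LH array, where the share of all probes called is not given. In this pair 7 of 17 oligodendrocyte and 1 of 6 oligodendrocyte precursor probes were called lower in DMH.

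**Figure D4:**
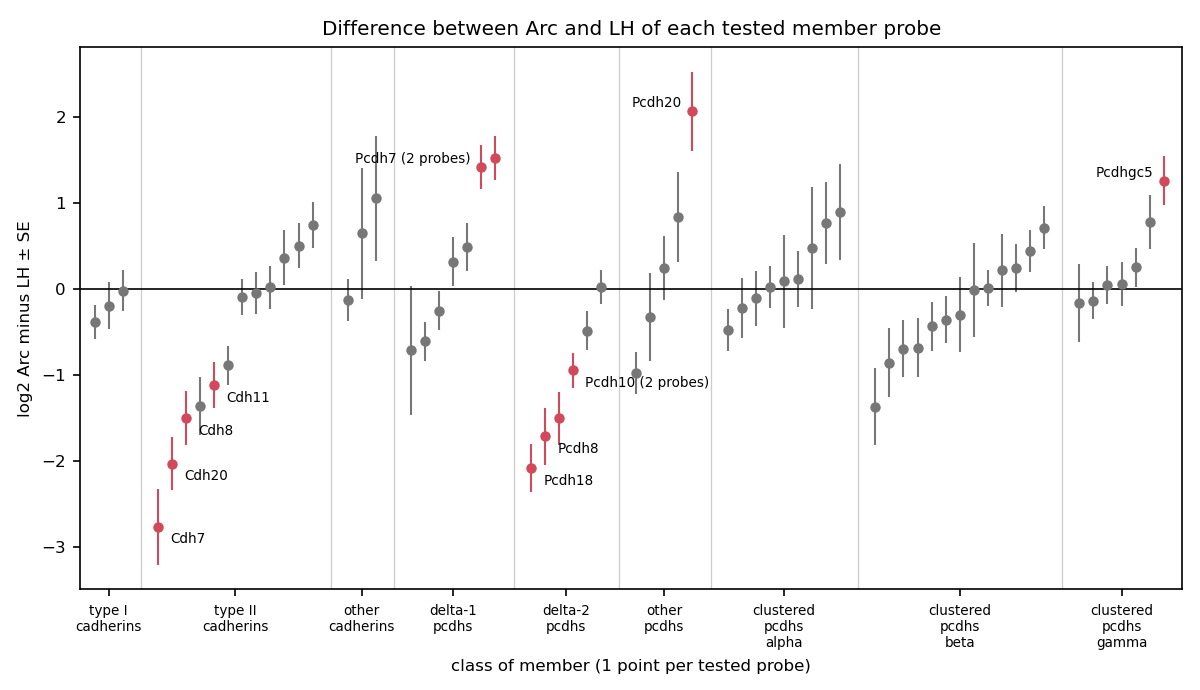
Log2 difference of Arc minus LH with its standard error for each of the 65 tested member probes, grouped by class and sorted within a class, with the 12 probes past an adjusted p of 0.05 in red and named. The called type II and delta-2 probes lie below 0, and the called Pcdh7, Pcdh20 and Pcdhgc5 probes lie above it.

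The samples of 1 nucleus did not overlap with the other 6 on a number of member probes. Both Arc samples were below all the others on 10 of 65 member probes (15.4%, with 10.9% of all tested probes) and above them on 5 (7.69%, with 8.67%). Both LH samples were above all others on 11 (16.9%, with 12.2%) and below on 3 (4.62%, with 9.29%). For VMH these were 6 above (9.23%, with 8.13%) and 2 below (3.08%, with 7.34%), and for DMH 1 above (1.54%, with 2.2%) and 3 below (4.62%, with 2.78%). Among the probes above all others are Cdh11 for LH and Pcdhb15 for VMH. Each was tested through that nucleus alone, so its place in these counts is not read as a result. No member was at least 10-fold higher in 1 nucleus than in each of the other 3, a criterion that 0.228% of all tested probes met.

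Genes that work with cadherins were looked at as a list. The F-test called 8.34% of all tested probes, and 1 of 21 for the catenins and adherens junction genes, 3 of 25 for the protocadherin partners and 3 of 14 for the other cadherin superfamily genes. The 1 junction probe was that of Nectin3, a nectin of neuronal junctions that was highest in VMH, with signals of 2041 and 2122 in Arc, 4597 and 5931 in VMH, 884 and 1343 in DMH and 1470.3 and 1479.7 in LH. Of the 3 protocadherin partner probes 2 were of Ptk2b (PYK2), a kinase inhibited by gamma protocadherins, at 5466 and 5613 in VMH on the one probe and 408 to 1721 on the other 6 arrays. The third was of Ttyh1, a membrane protein of glia, which was highest in LH. The 3 of the other superfamily genes were Ret, Fat1 and Cdhr1. Ret, a receptor with cadherin-like repeats for glial-derived neurotrophic factors, was lowest in VMH, with 50.2 and 65.7 there and 190 to 619.9 elsewhere.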

How the data were processed

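Laser-microdissected Arc, VMH, DMH and LH were measured on 8 one-colour Agilent arrays, 2 samples per nucleus. The authors amplified the RNA with a whole-transcriptome kit, labelled the cDNA for red (Cy5) detection (the labels name Cy3) and deposited scanner files with background-subtracted, detrended intensities per spot, read with Feature Extraction (10.7.3.1 in the file headers, 11.5.1.1 in the submitters' processing notes). The table of all arrays the authors deposited holds the same intensities, averaged over the spots of a probe, to whole numbers (within 0.51) for 99.7% to 99.8% of probes. Control and outlier spots were left out (126 to 364 per array), spots of a probe averaged, and the processed intensity divided by each array's 75th percentile before log2. The arrays had 47.1% to 52.7% of spots well above background and 0 saturated spots; their small number limits the precision. Of 28390 probes with a RefSeq accession 26756 (94.2%) were given a symbol from the RefSeq table.

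Limma 3.58.1 in R 4.3.3 fitted 1 mean per nucleus (4 residual and 3.02 prior degrees of freedom), tested all nuclei by an F-test and the 6 pairs by contrasts, and adjusted over all 28896 tested probes at 0.05. All 8 arrays were on 1 slide and in 1 scan. By their positions on it, the samples of replicate 1 lay in one row and those of replicate 2 in the other, so the block on the replicate number is also a block on the row. The bound for a nucleus not well above background raised its signal on each array to the lowest one well above background there. The genes named were the 8 past the F-test, the next 12 by its p and 5 chosen whatever their values. Pcdh10, Pcdh20, Pcdhgc5, Pcdhb15 and Cdh11 are among the 12. A few further members are named as examples, chosen after their values were seen. The members, the lists and the motifs were chosen with earlier results of these data known. Alternatives were other scaling, background correction, filters, the replicate number as a block, no sharing of variance (with Tukey's correction for the pairs), and leaving out each array.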

Additional observations from a re-analysis of the deposited data

How the results depend on the processing

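With 2 samples per nucleus the counts of calls rested on single arrays. When each array was left out in turn, the member probes called ranged from 1 to 14 for the F-test, from 0 to 8 for Arc against VMH, from 0 to 7 for Arc against DMH, from 1 to 12 for Arc against LH, from 0 to 2 for VMH against DMH, from 0 to 6 for VMH against LH and from 0 to 1 for DMH against LH. The nucleus with 1 array left was assumed to vary like the others. Without limma's sharing of variance between probes the member counts of the F-test and of the 6 pairs were all 0, and 1.82% of all probes passed the F-test. In that setting the pairs were tested with Tukey's correction over the 4 nuclei, a stricter test. Their counts therefore do not show the effect of sharing variance alone. With no filter on dim probes the F-test called 5 (6.02% of 83 member probes, against 3.15% of the 55681 probes tested), Arc against LH 6 (3.29% of all probes), VMH against DMH 0 (0.819%) and VMH against LH 3 (1.72%). With no scaling of the arrays Arc against DMH gave 4 (1.68% of all probes), VMH against DMH 0 (1.38%) and VMH against LH 3 (2.89%). Arc against DMH gave 5 with quantile normalization (1.5% of all probes) and 4 each with normexp background correction (1.61%), with only probes well above background on all 8 arrays (1.24%), and with each dim signal set to the lowest well-measured one (1.45%). VMH against DMH gave 2 in the last 2 of these (2.02% and 2.32%). The count at the 10-fold criterion was 0 under every alternative. The cause of these shifts was not tested.

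No scaling moved the median of all tested probes by up to -0.48 (Arc minus DMH). The Arc minus DMH difference of Pcdh1, which passed no test, changed sign under it, from 0.47 to -0.0117. The 10 probes past the F-test kept their direction under every alternative run.

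Samples share a replicate number across nuclei, but the labels give no shared mouse, and the correlations of same-numbered deviations from the nucleus means ran from -0.03 to 0.26, so the numbers were not taken as pairs. They also mark the row of the slide, so row and number cannot be told apart. With the replicate block the F-test called 8 member probes, all of them among the 10 (12.3%, when 7.2% of all probes passed), without Pcdh8 and 1 Cdh8 probe. It called Arc against VMH 5 (without Pcdhb15), Arc against LH 10 (without Pcdh20 and 1 Cdh11 probe), VMH against LH 4 (without Pcdhgc5) and VMH against DMH 0. Arc against DMH and DMH against LH stayed at 1 and 0.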
